A study of Mus musculus with 4 samples.

Results

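The genes described are the fibroblast growth factor (FGF) system of the mouse as an Agilent expression array measures it: the FGF ligands, their binding proteins, receptors and co-receptors, the FRS adaptors, the Sprouty and Spred inhibitors and the ETV transcription factors. They were taken by name, as every gene whose symbol begins with Fgf, Fgfr, Fgfrl, Fgfbp, Spry, Spred or Etv followed by a digit, together with Frs2, Frs3, Kl, Klb and Flrt1 to Flrt3. The rule gave 52 of the 34821 gene names on the array, measured by 83 of 55681 probes. The rule itself uses names and no measured value, although it was drawn up with earlier results of these data known. Fgfr1op and Fgfr1op2 were taken by their spelling, although neither encodes a component of FGF signalling. On 2 of the 4 arrays the RNA came from islet-like clusters, and on the other 2 it came from pancreatic islets. All samples were from Swiss albino mice, labelled male and 10 to 12 weeks old, and from pools of 2 to 4 animals. No genotype or transgene is named for either group. The clusters began as fibroblast-like pancreatic cells with features of mesenchymal stromal cells, passaged in medium with 10% fetal bovine serum. These cells were then held for 10 days on low-adherence dishes in serum-free medium with albumin, insulin, transferrin and selenium. Taurine was given at 0.3 mM on day 3, and nicotinamide at 100 mM, taurine at 3 mM and the incretin peptide GLP-1 (labelled 100 mM) were given on day 7. The labels name no FGF among the additions. The islets are called cultured for 48 h in their titles and freshly isolated in their descriptions. Uninduced starting cells were not among the samples, so each difference is between clusters and islets and not between before and after induction. The labels do not say whether the arrays of a group came from separate pools, and p-values therefore cover only array-to-array spread, which may be technical.

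FGFs are secreted proteins that bind receptor tyrosine kinases together with heparan sulphate or, for the hormone-like members, together with a Klotho protein. The activated receptor recruits the docking adaptor FRS2, which passes the signal to RAS and the ERK kinases. ERK activity raises transcription of the PEA3 group of ETS factors (Etv1, Etv4 and Etv5) and of Sprouty genes, whose products damp the same pathway. In the embryonic pancreas, Fgf10 from the surrounding mesenchyme acts on the epithelial splice form of Fgfr2 and keeps progenitor cells dividing. In the adult pancreas, Fgf21 is made by exocrine cells.

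Between 59.7% and 63.6% of the 59305 non-control spots of an array were well above background. As a description over the genes tested, which are not replicates, Pearson's r was 0.985 for the pair of clusters, 0.989 for the pair of islets and 0.796 to 0.810 across groups. Cell type markers were read beside the labels. Islet endocrine markers were lower in the clusters for 9 of 10 genes, and Gcg, Iapp, Ppy and Slc2a2 were not well above background there. The exception, Pcsk1, was higher in the clusters by 0.84 on the log2 scale (limma adjusted p = 0.0469). That call was lost when arrays were scaled by their medians. Acinar markers were lower for 12 of 12, and all were well above background in the samples labelled islets, which thus held exocrine RNA. Epithelial junction markers were lower for 9 of 9 and mesenchymal stromal markers higher for 12 of 12.

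Of the 52 genes, 42 were tested, a test being made where signal was well above background on each array of clusters or on each array of islets, and 28 of them differed between clusters and islets. Stromal ligands, Fgfr1, Fgfr2, the FRS adaptors, most Sprouty genes and Etv1 were higher in the clusters, while Fgf21, its co-receptor Klb, Fgf9, Fgfr3, Fgfr4, Fgfbp1 and Spry1 were lower. Signal is given as log2 of the scanner's processed signal minus the 75th percentile of the array, and levels of different probes were not set against each other. A gene was called higher or lower when limma's p, adjusted by Benjamini-Hochberg over all 24596 genes tested, was under 0.05. By this rule 17 members were higher in the clusters, 11 were lower and 14 did not pass. These counts include Fgf10 and Spry3 among the higher members and Fgf21 and Klb among the lower. Each of them was tested through its brighter group alone and was not well above background in the other group. The called share was 66.7% of the members tested against 54.8% of all genes. Higher calls made up 40.5% of the members against 26.6% of all genes, and lower calls 26.2% against 28.2%, so that the lower share lay near the background. At 2-fold or more, 17 members were higher, where 20.3% of all genes were, and 7 were lower, where 20.0% of all genes were. The values of both groups did not overlap for 35 of the 42 members, against 79.9% of all genes. The median difference of the members was 0.32 on the log2 scale, against -0.10 over all genes. The count of lower members was 7 without islet replicate 1 and also 7 without islet replicate 2.

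**Figure D1:**
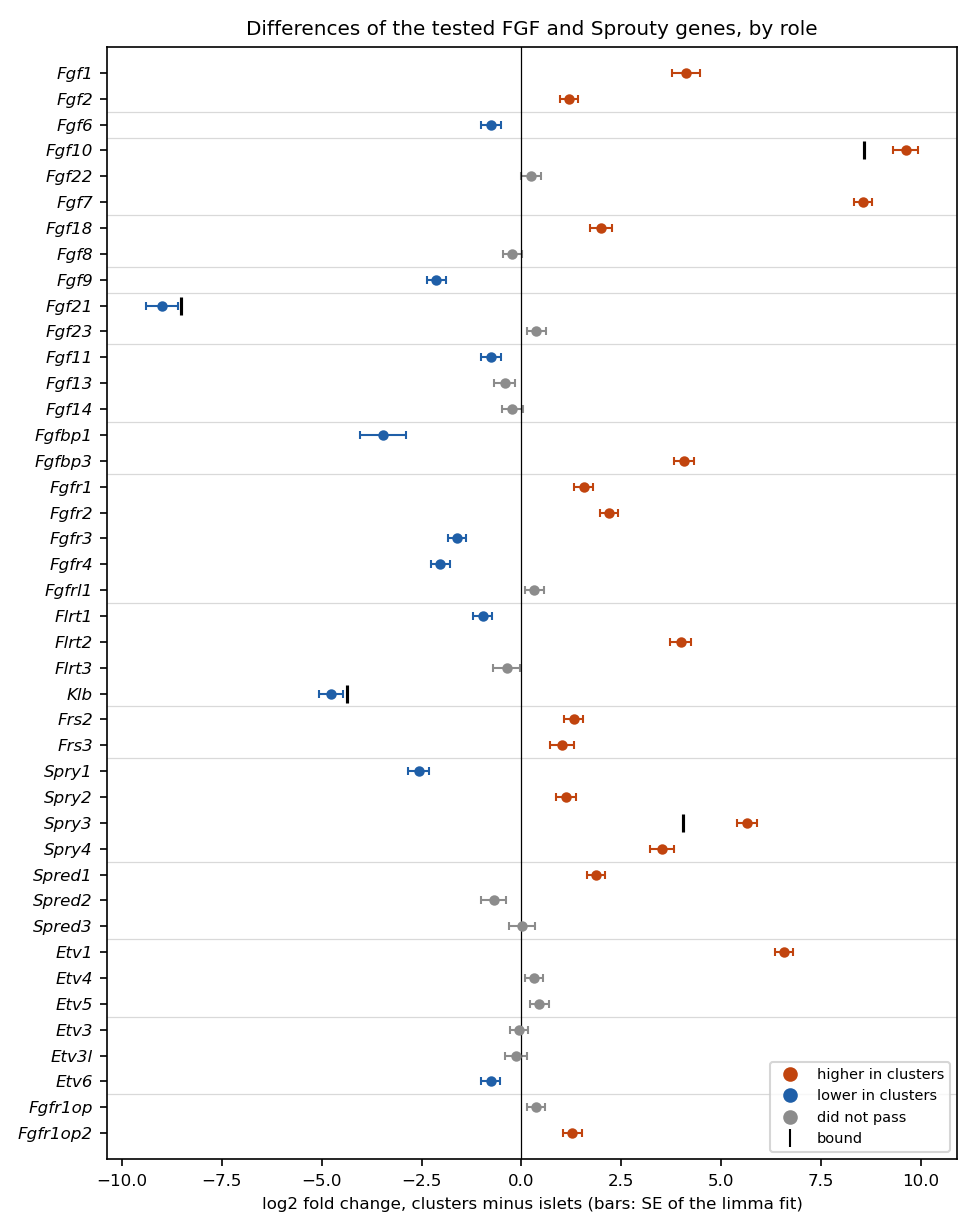
Difference in log2 signal, clusters minus islets, for the 42 genes tested, with bars for the SE of the limma fit and a black tick at the bound where a group was not well above background. Genes run by role from ligands at the top to ETV factors, with Fgfr1op and Fgfr1op2 at the bottom. Fgf10 (9.62) and Fgf21 (-9.00) lie at the extremes.

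Fgf7 and Fgf10, ligands that stromal cells make for epithelia, were furthest above the islets among the members. Fgf7 encodes keratinocyte growth factor, which binds the epithelial form of Fgfr2. Its signal was 7.36 and 7.16 in the clusters and -1.26 and -1.32 in the islets. The arrays of each group lay close together and the groups far apart. The Fgf7 difference was 8.55 ± 0.23 on the log2 scale (SE, n = 2 per group; limma adjusted p = 8.41e-09), or 375-fold. Fgf10, of the same subfamily, read 3.29 and 3.10 in the clusters and -6.88 and -5.97 in the islets. It was bright on both cluster arrays and not well above background on either islet array. The fitted difference was 9.62 ± 0.31 (limma adjusted p = 2.08e-08), from group means of 3.20 ± 0.13 and -6.42 ± 0.65 (SD, n = 2 each). This SE and p rest partly on undetected islet readings. Fgf10 was at least 379-fold higher, where the islet level is taken, on each array, as the higher of the lowest well-detected signal and the probe's own. The Fgf10 probe was spotted 10 times per array, and its spots had an SD of 0.0431 and 0.0374 on the cluster arrays and of 0.493 and 0.680 on the islet arrays. With normexp background correction, which adds an offset and draws dim values together, the Fgf10 difference was 5.43. Fgf22, the remaining tested member of this subfamily, read -2.42 and -2.56 in the clusters and -2.93 and -2.52 in the islets, and the groups overlapped. The Fgf22 probe used was not matched in RefSeq, and the other Fgf22 probe, which was matched, was above background on no array. RNA was taken from whole clusters and islets, so that fewer cells of a type and less RNA per cell cannot be told apart. The 12 mesenchymal stromal markers, all higher in the clusters, had a summed signal of 2265 and 1903 times the 75th percentile there and 50.2 and 57.5 times in the islets, where Twist1 was not well above background. Their part in the Fgf7 and Fgf10 results was not tested.

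The promoters of Fgf7 and Fgf10 are shown as the pair of stromal ligands with the largest rises. Each window covers 250 bases before and 50 after the gene's start, 5′ to 3′ on the gene's own strand, from RefSeq on GRCm38.p6. The Fgf7 window is chr2:126034408-126034707 on the plus strand, and capitals mark a CCAAT box. The Fgf10 window is chr13:118714449-118714748 on the plus strand and held none of the motifs searched.
Fgf7: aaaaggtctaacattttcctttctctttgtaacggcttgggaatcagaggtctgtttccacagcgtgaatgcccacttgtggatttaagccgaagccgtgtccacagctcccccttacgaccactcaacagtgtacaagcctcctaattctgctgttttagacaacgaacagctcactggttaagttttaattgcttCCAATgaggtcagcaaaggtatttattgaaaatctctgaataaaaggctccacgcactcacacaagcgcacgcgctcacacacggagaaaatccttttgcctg
Fgf10: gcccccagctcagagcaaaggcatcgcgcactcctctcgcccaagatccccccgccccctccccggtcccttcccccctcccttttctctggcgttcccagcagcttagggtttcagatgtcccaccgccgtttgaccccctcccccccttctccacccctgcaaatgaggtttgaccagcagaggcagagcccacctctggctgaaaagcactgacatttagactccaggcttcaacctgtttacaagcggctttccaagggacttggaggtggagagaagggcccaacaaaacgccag
The windows differed in base composition, with 45.7% G and C in Fgf7 and 60.7% in Fgf10, around a median of 52.7% over 32851 windows. The motifs searched, on both strands, numbered 4, and no matches overlapped. CCGGAA is the core that ETS factors such as the ETV proteins bind. TGATGNAA is bound by pairs of C/EBP and ATF factors. TATAAA is the letters of the TATA box, which places the start of transcription. CCAAT is the letters of the box of that name, which NF-Y binds. CCGGAA was in 14.9% of all windows and in those of 7 of the 40 members with a window, namely Fgf5, Fgf12, Fgfr4, Fgfrl1, Flrt2, Frs2 and Spry2. CCAAT was in 37.4% of all windows and in 15 of the 40 members, and TATAAA in 13.6% and 6 of the 40. The percentages count windows and the member figures count genes, some with several windows. Of the 50 member windows, 7 held CCGGAA, 17 held CCAAT and 6 held TATAAA.

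**Figure D2:**
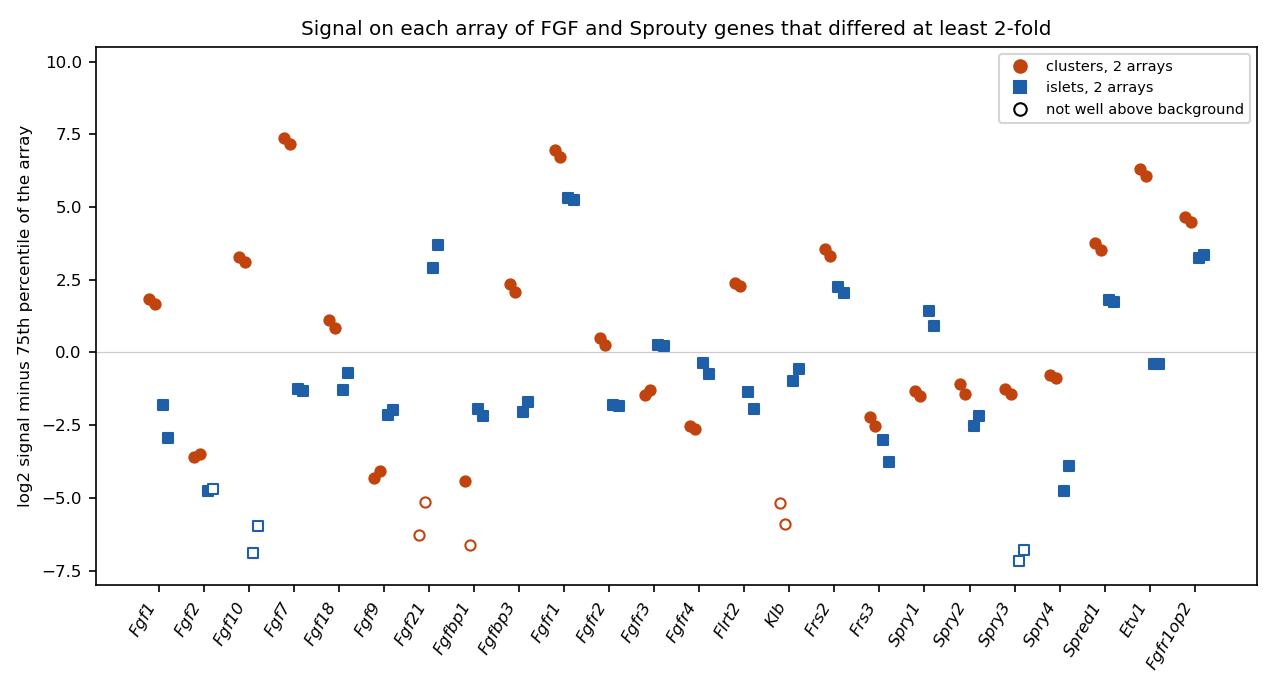
Log2 signal relative to the 75th percentile on each of the 4 arrays (clusters as circles, islets as squares, open where not well above background) for the 24 genes called and at least 2-fold apart. Fgf7 sits at 7.36 and 7.16 in the clusters against -1.26 and -1.32 in the islets, and Fgf21 and Klb are open, that is dim, in the clusters.

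Among the other paracrine ligands, Fgf1, Fgf2 and Fgf18 were higher in the clusters and Fgf9 and Fgf6 were lower. Fgf1, acidic FGF, binds all the signalling receptors and leaves cells without a signal peptide. It read 1.82 and 1.65 in the clusters and -1.82 and -2.94 in the islets. No islet value came near a cluster value, and Fgf1 was higher by 4.12 ± 0.35 (limma adjusted p = 8.42e-06), or 17.4-fold. Fgf18, a ligand known from bone, cartilage and lung, read 1.13 and 0.86 in the clusters and -1.29 and -0.72 in the islets. It was higher on both cluster arrays, by 2.00 ± 0.27 (limma adjusted p = 0.000205), or 3.99-fold. Fgf9, which signals between epithelium and mesenchyme in several embryonic organs, read -4.32 and -4.06 in the clusters and -2.14 and -1.98 in the islets. The groups did not overlap, and Fgf9 was lower by a log2 difference of -2.13 ± 0.24 (limma adjusted p = 5.43e-05), or 4.38-fold. Its difference was -0.96 with normexp.

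Fgf2, basic FGF, a mitogen commonly given to stromal cells in culture, was dim in every sample. It read -3.60 and -3.51 in the clusters and -4.77 and -4.71 in the islets, where it was well above background on 1 of 2 arrays. The cluster values were the higher ones, by 1.18 ± 0.23 (limma adjusted p = 0.00181). Because 1 islet value is not a detected level, no fold is given. The Fgf2 call was lost with normexp (0.12, adjusted p = 0.705), without islet replicate 1 (adjusted p = 0.0902) and without islet replicate 2 (adjusted p = 0.0753). The probe behind this value is one of the few that cross an intron, at mm9 chr3:37247934-37295153 on the plus strand, so that it matches spliced RNA. It is shown because the Fgf2 reading rests on it alone, and it was spotted 10 times per array. Its spots had an SD of 1.17 and a lowest value of -6.82 on clusters replicate 1, and an SD of 0.142 on clusters replicate 2.
Fgf2 probe: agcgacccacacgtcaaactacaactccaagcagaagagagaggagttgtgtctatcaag
Fgf6, a ligand of muscle, read -1.78 and -2.16 in the clusters and -1.30 and -1.11 in the islets and was lower by a log2 difference of -0.76 ± 0.25 (limma adjusted p = 0.0257). The Fgf6 probe used was not matched in RefSeq, and the other Fgf6 probe, which was matched, was above background on no array. The Fgf6 call was lost with normexp (-0.49, adjusted p = 0.0758), with no filter on dim probes (0.0803), with the replicate block (0.0713), without clusters replicate 2 (0.134) and without islet replicate 1 (0.233) or 2 (0.405). Fgf8, a signal of embryonic organising centres, differed by -0.23 (limma adjusted p = 0.437) and was not called. The other Fgf8 probes were above background on no array.

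Among the endocrine FGFs, Fgf21 stood far below islets in the clusters, and so did Klb, which encodes beta-Klotho, the co-receptor through which Fgf21 reaches Fgfr1. Fgf21 read -6.26 and -5.13 in the clusters and 2.91 and 3.70 in the islets. It was bright on both islet arrays and not well above background on either cluster array. The fitted difference was -9.00 ± 0.40 (limma adjusted p = 1.02e-07), from means of -5.70 ± 0.80 and 3.31 ± 0.56 (SD, n = 2 each), and Fgf21 was at least 366-fold lower. Klb read -5.17 and -5.90 in the clusters and -0.97 and -0.57 in the islets. It too was not well above background on either cluster array. Its fitted difference was -4.77 ± 0.30 (limma adjusted p = 1.06e-06), from means of -5.54 ± 0.52 and -0.77 ± 0.29 (SD, n = 2 each), and Klb was at least 20.7-fold lower. For both Fgf21 and Klb, the SE and p rest partly on undetected cluster readings. With normexp these differences were -5.77 for Fgf21 and -1.93 for Klb. The 12 acinar markers had a summed signal of 1.70 and 1.52 times the 75th percentile in the clusters and 4009 and 6289 times in the islets. Amy2a5, Bhlha15, Cela2a, Cpa1, Pnlip and Ptf1a were not well above background in the clusters. The 10 islet endocrine markers summed to 2.35 and 1.94 in the clusters and 180 and 30.8 in the islets. The part of exocrine or endocrine cells in the Fgf21 and Klb results was not tested. Fgf23, the phosphate hormone made by bone, read 4.53 and 4.39 in the clusters and 3.99 and 4.20 in the islets. The difference of 0.37 ± 0.23 did not pass (limma adjusted p = 0.203), and it passed under median scaling (0.57, adjusted p = 0.0253). Only 1 of its 2 probes gave signal, and that probe holds a run of 20 bases of alternating C and A or T and G, while the other was above background on no array.

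The promoters of this hormone and its co-receptor are shown because both genes were well above background in the islets and not in the clusters. The Fgf21 window is chr7:45615441-45615740 on the minus strand and the Klb window is chr5:65348161-65348460 on the plus strand, again from RefSeq on GRCm38.p6. Capitals in Fgf21 mark a match to TGATGNAA, which reads TTGCATCA here because it lies on the opposite strand, and then TATAAA.
Fgf21: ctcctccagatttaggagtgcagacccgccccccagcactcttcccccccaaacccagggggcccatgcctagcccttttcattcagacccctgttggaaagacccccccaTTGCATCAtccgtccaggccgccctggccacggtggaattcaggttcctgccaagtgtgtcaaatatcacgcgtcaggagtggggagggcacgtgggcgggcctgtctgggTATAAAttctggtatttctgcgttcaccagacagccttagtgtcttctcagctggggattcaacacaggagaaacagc
Klb: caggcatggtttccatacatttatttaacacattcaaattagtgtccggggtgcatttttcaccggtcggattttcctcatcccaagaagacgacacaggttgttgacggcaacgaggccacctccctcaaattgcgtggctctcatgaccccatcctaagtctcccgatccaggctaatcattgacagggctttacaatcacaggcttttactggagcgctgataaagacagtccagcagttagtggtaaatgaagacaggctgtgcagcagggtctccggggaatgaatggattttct
TGATGNAA was in 3.97% of all windows and, among the 40 members with a window, in Fgf21 alone. As background, ATF4, a factor of the amino acid and stress response, is known to act on Fgf21 through elements of this kind. A match describes the letters and is not a measured site. The Klb window held none of the motifs searched.

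The FGF homologous factors stay inside the cell and bind voltage-gated sodium channels, and none of the 3 tested was higher in the clusters. Fgf11 read -3.04 and -3.23 in the clusters and -2.53 and -2.21 in the islets. It was lower by a log2 difference of -0.77 ± 0.24 (limma adjusted p = 0.0235). The Fgf11 call was lost with normexp (-0.42, adjusted p = 0.132), with no filter on dim probes (0.0749), with the replicate block (0.0652), and without clusters replicate 1 (0.0697), clusters replicate 2 (0.119), islet replicate 1 (0.191) or islet replicate 2 (0.464). The brighter probe of Fgf13 read -2.45 and -2.82 in the clusters and -2.42 and -2.00 in the islets and did not pass (-0.42, limma adjusted p = 0.196). This probe, used for the gene, was not matched in RefSeq. The other Fgf13 probe, which was matched, read -5.65 and -5.86 in the clusters and -1.84 and -2.96 in the islets. It was not well above background on either cluster array. Its fitted difference of -3.35 passed over all probes (limma adjusted p = 0.000139), with means of -5.75 in the clusters and -2.40 in the islets, and this probe was at least 7.02-fold lower in the clusters. Fgf13 was called lower when a gene's probes were averaged (-1.89, adjusted p = 0.00016), a value that rests on the undetected cluster level of that probe. Fgf14 differed by -0.23 (limma adjusted p = 0.476), and its other probes were above background on no array.

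The FGF binding proteins free FGFs from heparan sulphate in the matrix, and those tested went in opposite directions. Fgfbp3 read 2.34 and 2.07 in the clusters and -2.05 and -1.70 in the islets. The groups were well apart, and Fgfbp3 was higher by 4.08 ± 0.25 (limma adjusted p = 8.39e-07), or 16.9-fold. Fgfbp1, an epithelial protein, read -4.41 and -6.64 in the clusters and -1.94 and -2.17 in the islets, and clusters replicate 2 was not well above background. Both cluster values lay below both islet values, and the log2 difference was -3.47 ± 0.57 (limma adjusted p = 0.000742). Because 1 cluster value is not a detected level, no fold is given. The Fgfbp1 difference was -2.35 without clusters replicate 2 (adjusted p = 0.00481) and -1.08 with normexp.

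Of the receptors, Fgfr1 and Fgfr2 were higher in the clusters and Fgfr3 and Fgfr4 were lower. Fgfr1, the main receptor of stromal cells and the partner of Klb, read 6.96 and 6.71 in the clusters and 5.30 and 5.25 in the islets. It was detected in every sample and higher by 1.56 ± 0.23 (limma adjusted p = 0.000392), or 2.95-fold. Its 3 probes were all called higher, with differences of 0.87 to 1.56. Fgfr2, whose epithelial form binds Fgf7 and Fgf10, read 0.49 and 0.27 in the clusters and -1.80 and -1.83 in the islets. It was higher by 2.20 ± 0.23 (limma adjusted p = 3.83e-05), or 4.58-fold. Another Fgfr2 probe, with 10 spots per array, read -0.90 and -0.86 in the clusters and -4.56 and -4.95 in the islets. It was not well above background on islet replicate 2, so that its fitted difference of 3.87 rests partly on an undetected level. These Fgfr2 probes overlap on the genome, at mm9 chr7:137307473-137307532 and chr7:137307455-137307514, and which splice form they report was not analysed here.

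Fgfr3, a receptor of cartilage and epithelia, read -1.45 and -1.31 in the clusters and 0.26 and 0.21 in the islets. The islet values were the higher ones on both arrays, and the log2 difference was -1.61 ± 0.23 (limma adjusted p = 0.000274), or 3.05-fold lower in the clusters. Another Fgfr3 probe was called lower too (fitted difference -1.68, means -5.37 and -3.70), but it was not well above background on either cluster array, and its bound was at least 2.79-fold. That probe was not matched in RefSeq. The remaining probe, which crosses an intron at mm9 chr5:34077856-34078090 on the plus strand, gave -0.64 and was not called (limma adjusted p over all probes = 0.0595). It is shown because it is the Fgfr3 probe that departs from the others in its call.
Fgfr3 probe: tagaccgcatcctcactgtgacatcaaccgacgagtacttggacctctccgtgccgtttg
Fgfr4, a receptor of liver and other endoderm, read -2.52 and -2.64 in the clusters and -0.35 and -0.75 in the islets. It was lower on both cluster arrays, with a log2 difference of -2.03 ± 0.25 (limma adjusted p = 9.87e-05), or 4.08-fold. The Fgfr4 difference was -1.35 with normexp, and its dimmer probe gave -0.86. Fgfrl1, a receptor that lacks the kinase domain, read 4.09 and 3.84 in the clusters and 3.64 and 3.64 in the islets. Its difference of 0.32 did not pass (limma adjusted p = 0.264), although it passed under median scaling (0.52, adjusted p = 0.0394).

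The splice form of the receptors is set by factors that were read from a separate list, of which 4 genes were tested, 1 was higher, 2 were lower and 1 did not pass. Esrp1, which promotes the epithelial form of Fgfr2, read -1.11 and -1.47 in the clusters and 4.02 and 4.24 in the islets. It was lower in the clusters by a log2 difference of -5.42 ± 0.25 (limma adjusted p = 1.27e-07). Its relative Esrp2 was not well above background on clusters replicate 1 and read -4.01 on clusters replicate 2, against 2.11 and 2.06 in the islets. The Esrp2 difference was -7.50 ± 0.70 (limma adjusted p = 1.62e-05), -4.37 with normexp, and was not called with a variance trend (adjusted p = 0.0555). Rbfox2, another splicing factor, was higher by 1.82 ± 0.31 (limma adjusted p = 0.000942), and Ptbp1 gave -0.41 and did not pass. The 9 epithelial junction markers, all lower in the clusters, summed to 0.414 and 0.351 times the 75th percentile there and 1820 and 2017 times in the islets, with Cdh1, Dsp, Epcam, Krt8, Krt18 and Ocln not well above background in the clusters. Their part in the receptor and Esrp results was not tested.

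The FLRT proteins are membrane proteins with leucine-rich repeats that can bind FGF receptors, and each of the 3 behaved differently. Flrt2 read 2.39 and 2.28 in the clusters and -1.37 and -1.93 in the islets. It was higher on both cluster arrays, by 3.99 ± 0.26 (limma adjusted p = 1.44e-06), or 15.8-fold, while its dimmer probe gave 0.92 and the mean of its probes 2.45. Flrt1 read -1.88 and -2.12 in the clusters and -1.03 on each islet array. It was lower by a log2 difference of -0.97 ± 0.23 (limma adjusted p = 0.00619), and its other tested probe gave -3.83. The mean of Flrt1 probes gave -2.40 and normexp gave -0.64. The Flrt1 call was lost without islet replicate 1 (adjusted p = 0.167) and without islet replicate 2 (0.179). Flrt3 read 3.03 and 2.84 in the clusters and 3.83 and 2.78 in the islets, so that the groups overlapped, and it did not pass (-0.36, limma adjusted p = 0.386).

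Both docking adaptors that link the receptor to RAS were higher in the clusters, by small amounts. Frs2 read 3.56 and 3.32 in the clusters and 2.24 and 2.03 in the islets and was higher by 1.31 ± 0.24 (limma adjusted p = 0.00133), or 2.47-fold. Frs3, a form known from neural tissue, read -2.21 and -2.55 in the clusters and -3.02 and -3.76 in the islets and was higher by 1.01 ± 0.30 (limma adjusted p = 0.0165), or 2.02-fold. The groups did not overlap for either gene. The Frs2 call was lost without islet replicate 2 (1.20, adjusted p = 0.0792). The Frs3 call was lost with normexp (0.34, adjusted p = 0.245), with scaling to probes detected on all arrays (0.82, adjusted p = 0.0697), with no filter on dim probes (0.0666), and without clusters replicate 1 (0.159), clusters replicate 2 (0.0805) or islet replicate 2 (0.64, adjusted p = 0.429).

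Downstream of the adaptors, the RAS and MAP kinase relay list had 22 genes tested, of which 11 were higher in the clusters, 2 were lower and 9 did not pass, with a median difference of 0.67 against -0.10 over all genes. The called share of 59.1% was near the 54.8% of all genes, with 50.0% higher against 26.6% and 9.09% lower against 28.2%. The count of higher genes was 7 without islet replicate 1 and 6 without islet replicate 2. Rasa1, a GTPase-activating protein that switches RAS off, was higher by 2.77 ± 0.24, and Gab2, a docking protein, by 2.37 ± 0.27. Sos1, the exchange factor that loads RAS, was not well above background in the islets and was at least 3.72-fold higher in the clusters. The Sos1 group means were -3.41 ± 0.03 in the clusters and -6.26 ± 0.73 in the islets, and its call was lost with normexp (0.36, adjusted p = 0.216). The Gab2 difference was 1.11 with normexp. Gab1, the related docking protein, was lower with a log2 difference of -0.79 ± 0.23, a call lost without each of the 4 arrays in turn (adjusted p = 0.0537 to 0.337) and with no filter on dim probes (0.0568). Hras1, the gene of the HRAS GTPase, read -1.55 and 2.72 in the clusters and 4.02 and 3.86 in the islets, so that the cluster arrays disagreed by more than 4 log2 units. Its difference was -3.35 ± 1.03 (limma adjusted p = 0.0209), a call lost in 9 alternatives (adjusted p = 0.0852 to 0.334), among them median scaling, quantile normalization, the authors' values and the replicate block. The Hras1 difference was -1.22 without clusters replicate 1, -5.49 without clusters replicate 2 and -0.74 for the mean of its probes.

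Of the 4 Sprouty genes, which encode inhibitors of RAS and ERK signalling, Spry2, Spry3 and Spry4 were higher in the clusters and Spry1 was lower. Spry1 read -1.32 and -1.50 in the clusters and 1.42 and 0.91 in the islets. Both islet values lay above both cluster values, and the log2 difference was -2.57 ± 0.26 (limma adjusted p = 2.81e-05), or 5.96-fold lower in the clusters. Spry2 read -1.09 and -1.41 in the clusters and -2.54 and -2.18 in the islets. It moved in the direction opposite to Spry1, by 1.11 ± 0.25 (limma adjusted p = 0.00474), or 2.16-fold. The Spry2 difference was 0.59 with normexp, and its call was lost without clusters replicate 1 (adjusted p = 0.0594), islet replicate 1 (0.190) or islet replicate 2 (0.0562).

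Spry4 read -0.79 and -0.88 in the clusters and -4.78 and -3.92 in the islets. The cluster values agreed closely, and Spry4 was higher by 3.51 ± 0.30 (limma adjusted p = 9.67e-06), or 11.4-fold, and by 1.54 with normexp. Spry3 read -1.25 and -1.42 in the clusters and -7.19 and -6.79 in the islets, where it was not well above background on either array. The fitted difference was 5.65 ± 0.25 (limma adjusted p = 1.00e-07), from means of -1.33 ± 0.11 and -6.99 ± 0.28 (SD, n = 2 each), and Spry3 was at least 16.4-fold higher. The SE and p of Spry3 rest partly on undetected islet readings. With normexp the Spry3 difference was 1.64. Each Sprouty gene was read by a single tested probe.

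The promoters of Spry1 and Spry2 are shown as the members of the family called in opposite directions, each well above background on all 4 arrays. The Spry1 window is chr3:37639697-37639996 on the plus strand and the Spry2 window is chr14:105896770-105897069 on the minus strand (RefSeq, GRCm38.p6). Capitals mark a CCAAT box on the opposite strand in Spry1 (ATTGG) and the ETS core CCGGAA in Spry2.
Spry1: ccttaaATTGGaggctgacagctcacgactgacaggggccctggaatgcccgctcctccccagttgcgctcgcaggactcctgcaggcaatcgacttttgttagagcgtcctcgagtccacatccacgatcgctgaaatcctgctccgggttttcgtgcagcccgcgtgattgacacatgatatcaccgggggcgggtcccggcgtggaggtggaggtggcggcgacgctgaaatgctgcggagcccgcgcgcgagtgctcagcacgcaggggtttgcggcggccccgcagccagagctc
Spry2: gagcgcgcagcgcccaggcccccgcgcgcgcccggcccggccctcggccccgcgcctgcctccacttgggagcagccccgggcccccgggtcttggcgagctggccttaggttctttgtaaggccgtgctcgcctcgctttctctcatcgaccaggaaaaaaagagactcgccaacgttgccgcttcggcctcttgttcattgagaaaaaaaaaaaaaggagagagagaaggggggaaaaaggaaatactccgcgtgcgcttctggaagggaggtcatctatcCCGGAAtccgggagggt
Both windows were rich in G and C, with 64.3% in Spry1 and 62.7% in Spry2. The ETS core of Spry2 starts at base 284 of its window and thus after the annotated start. As a short motif found in 14.9% of all windows it says nothing about binding.

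The Spred proteins block RAF activation at the membrane together with neurofibromin, and 1 of the 3 genes was called. Spred1 read 3.75 and 3.50 in the clusters and 1.79 and 1.73 in the islets. It was higher on both cluster arrays, by 1.87 ± 0.23 (limma adjusted p = 0.000119), or 3.65-fold, and its 3 probes gave 1.52 to 1.87, of which 2 were called. The Spred1 probe used was not matched in RefSeq, while the other called probe, with a difference of 1.81, was matched. Spred2 read -0.80 and -1.76 in the clusters and -0.51 and -0.66 in the islets and did not pass (-0.70, limma adjusted p = 0.0940). Spred2 was called lower without clusters replicate 1 (-1.18, adjusted p = 0.0251), with a filter asking for detection on every array (adjusted p = 0.0328) and with a variance trend (adjusted p = 0.0136). Spred3 read -3.71 and -4.62 in the clusters and -3.94 and -4.40 in the islets, with overlapping groups and a difference of 0.01.

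Of the PEA3 factors, which are transcribed in response to FGF and ERK signalling, Etv1 was far higher in the clusters while Etv4 and Etv5 did not pass. Etv1 read 6.30 and 6.06 in the clusters and -0.38 and -0.41 in the islets. It was higher by 6.57 ± 0.23 (limma adjusted p = 2.82e-08), or 95.2-fold, with the arrays of each group close together. Its dimmer probe read -2.05 and -1.96 in the clusters and was not well above background in the islets, with a fitted difference of 4.96. Etv4 read 3.46 and 3.25 in the clusters and 3.07 and 3.02 in the islets, a difference of 0.31 (limma adjusted p = 0.285). Etv5 read 4.59 and 4.33 in the clusters and 3.90 and 4.13 in the islets, a difference of 0.45 (limma adjusted p = 0.143). On the probe used for each of these genes, the cluster values were above the islet values on every array, by amounts that did not pass the test. The other tested Etv4 probe read -0.56 and 0.67 in the clusters and 0.43 and 0.52 in the islets. Its groups overlapped, and its difference of -0.42 did not pass (limma adjusted p over all probes = 0.379). Etv4 passed under median scaling (0.50, adjusted p = 0.0444). Etv5 passed under median scaling (0.64, adjusted p = 0.0202) and with a variance trend (adjusted p = 0.0288).

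The remaining ETV factors are not PEA3 members and differed little. Etv6, a transcriptional repressor of blood and other tissues, read 2.00 and 1.86 in the clusters and 2.82 and 2.58 in the islets and was lower by a log2 difference of -0.77 ± 0.23 (limma adjusted p = 0.0201). The Etv6 call was lost under median scaling (-0.58, adjusted p = 0.0543), with no filter on dim probes (0.0657), and without clusters replicate 1 (0.0628), clusters replicate 2 (0.0953), islet replicate 1 (0.392) or islet replicate 2 (0.230). Etv3 differed by -0.06 and Etv3l by -0.14, and neither passed. The Etv3l probe was not matched in RefSeq. Fgfr1op, named Cep43 in RefSeq and a centrosomal protein, differed by 0.36 and did not pass (limma adjusted p = 0.217), although it passed under median scaling (adjusted p = 0.0432). Fgfr1op2 read 4.67 and 4.47 in the clusters and 3.25 and 3.34 in the islets and was higher by 1.27 ± 0.23 (limma adjusted p = 0.0013), a call lost without islet replicate 1 (1.23, adjusted p = 0.0675).

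Genes that commonly rise after ERK activation were read from a further list, where 18 genes were tested, 6 were higher in the clusters, 6 were lower and 6 did not pass, with a median of 0.11 against -0.10 over all genes. Lif, a cytokine, was higher by 4.81 ± 0.27 (limma adjusted p = 5.30e-07), and the transcription factors Egr2 and Fosl1 by 4.44 ± 0.23 and 3.58 ± 0.24. In the opposite direction, the transcription factors Fos and Myc gave -2.81 ± 0.27 and -2.06 ± 0.24, and Il17rd, a membrane antagonist of FGF signalling, gave -1.98 ± 0.23. The higher and the lower share, 33.3% each, lay near those of all genes (26.6% and 28.2%). Without islet replicate 2 it held 3 higher and 3 lower genes, and without islet replicate 1 it held 3 lower genes.

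Heparan sulphate, the sugar chain that holds FGFs at the cell surface, is built and trimmed by enzymes and carried by glypicans and syndecans. Of 25 genes tested in that list, 16 were higher in the clusters, 4 were lower and 5 did not pass, with a median of 1.54 against -0.10 over all genes. These are 64% higher and 16% lower, against 26.6% and 28.2% of all genes. Ndst3, a sulphotransferase, was higher by 6.28 ± 0.26 (limma adjusted p = 7.20e-08) and by 3.98 with normexp. Sulf1, which removes sulphate groups and thereby limits FGF binding, was higher by 4.90 ± 0.24, and the heparanase Hpse by 4.24 ± 0.23. The related Sulf2 was lower, by a log2 difference of -1.04 ± 0.24, a call lost without clusters replicate 2 (adjusted p = 0.0503), islet replicate 1 (0.211) or islet replicate 2 (0.0859). Gpc3, a glypican, was not well above background in the clusters (mean -6.99 ± 0.23, against -0.05 ± 0.57 in the islets) and was at least 35.8-fold lower, or -2.72 in log2 difference with normexp. Extl1, a glycosyltransferase, gave -3.09 ± 0.25, and -1.37 with normexp. The count of lower genes was 2 without clusters replicate 2, without islet replicate 1 or without islet replicate 2.

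**Figure D3:**
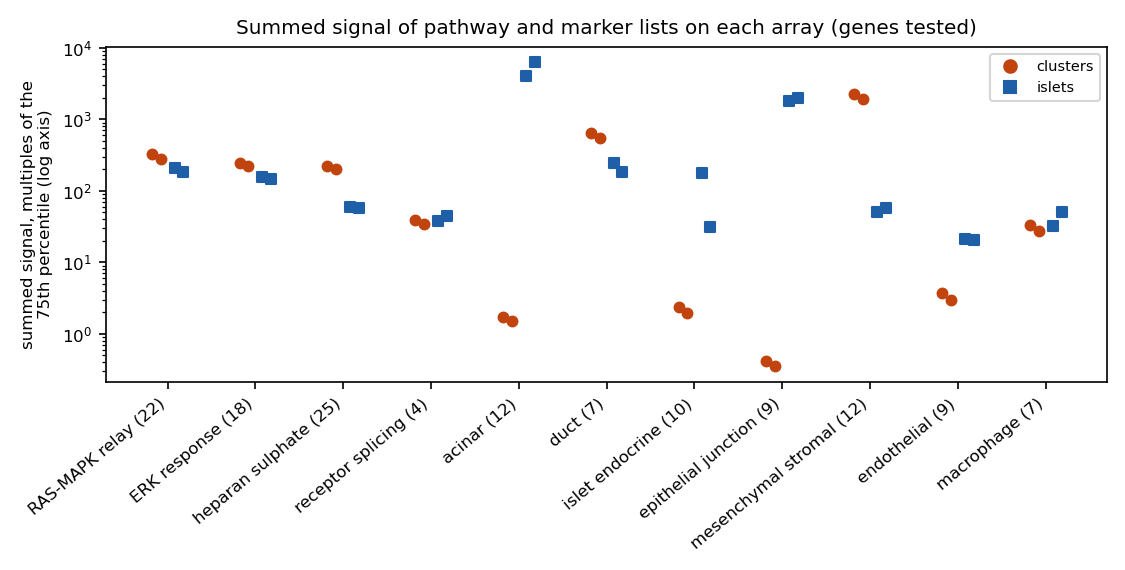
Summed signal of each pathway and marker list on each array, in multiples of the array's 75th percentile on a log axis, with the number of genes tested in brackets. The acinar and epithelial junction sums lie lower in the clusters, and the mesenchymal stromal and heparan sulphate sums lie higher. The macrophage sums overlap only with Itgam, their brightest gene, included, and the duct sum rests on Spp1.

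The remaining cell type lists were read for their part in the samples. The 9 endothelial markers, all lower in the clusters, summed to 3.67 and 3.01 times the 75th percentile there and 21.3 and 20.5 times in the islets, with Cdh5, Emcn, Robo4, Sox18, Tek and Tie1 not well above background in the clusters. Of 7 macrophage markers 2 were higher and 2 lower, with sums of 32.8 and 27.7 in the clusters and 31.8 and 51.0 in the islets and with Lyz2 not well above background in the islets. Without Itgam, the brightest of them, the macrophage sums were 5.36 and 4.41 in the clusters and 14.3 and 30.2 in the islets. Of 7 duct markers 1 (Spp1) was higher and 6 were lower, with Krt7 not well above background in the clusters. Their sums of 634 and 543 in the clusters and 243 and 182 in the islets were carried by Spp1, and without it the sums were 1.02 and 1.49 in the clusters and 166 and 110 in the islets. The part of these cell types in the FGF and Sprouty results was not tested.

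Most genes with several tested probes gave the same call with each. Over all probes fitted together, 26 of the 61 tested probes of these genes were higher in the clusters, 15 were lower and 20 did not pass, where 53.2% of all probes were called, 26.4% higher and 26.8% lower. Of the 15 genes with several tested probes, 12 had all probes on the same side of the test, and none had probes called in opposite directions. The exceptions were Fgf13, Fgfr3 and Spred1, each with called and uncalled probes. Among the 12, Etv4, Fgfr1op and Flrt3 had no probe called, and the Etv4 probes differed in sign (0.31 and -0.42). The probes of Fgf18, Fgfr2 and Fgfr1op overlap on the genome and are not separate readings. Probes too dim to be tested are outside these counts. Sizes differed more than calls did: the probes of Flrt1 gave -0.97 and -3.83, those of Flrt2 3.99 and 0.92, and the fitted values of Fgf1 were 4.12 and 1.51. The dimmer Fgf1 probe (means -4.36 and -5.87) was not well above background on either islet array, so that 1.51 is set by the detection limit and only a bound of at least 1.64-fold higher can be given. The same holds for the Spred1 probe that was not called (means -4.36 in the clusters and -5.88 in the islets, at least 1.85-fold) and for the dimmer Etv1 probe (means -2.01 and -6.97, at least 10.3-fold).

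**Figure D4:**
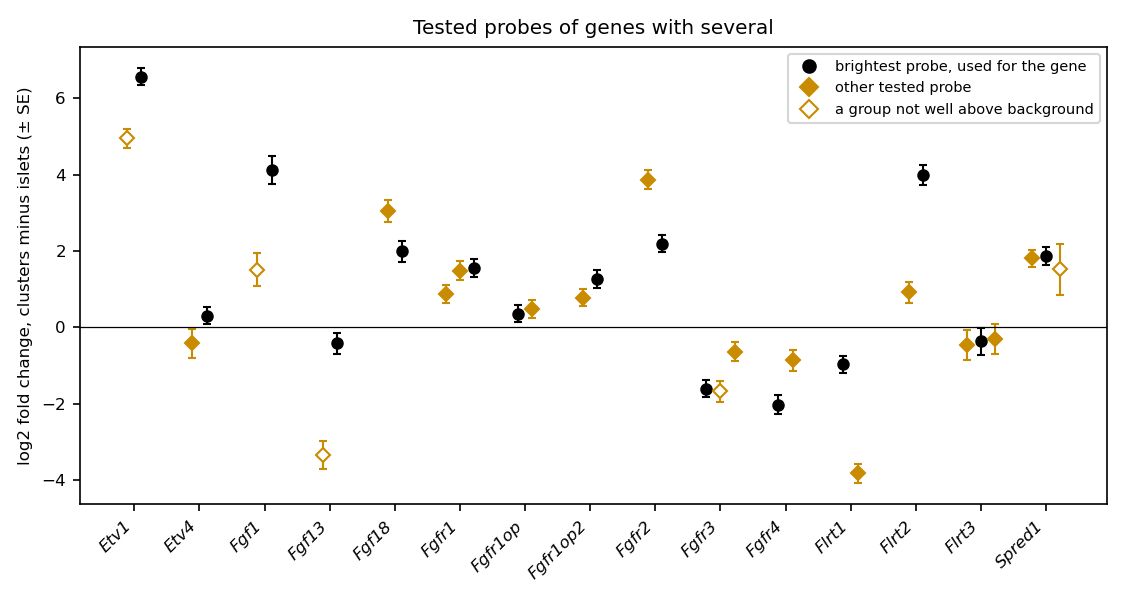
Log2 difference, clusters minus islets, with the SE of the fit over all probes, for each tested probe of the 15 genes with several, with the brightest probe as a black circle, the others as diamonds, and open diamonds where a group was not well above background. The probes of Flrt1 (-0.97 and -3.83) and Fgf13 (-0.42, and -3.35 for an open diamond) lie furthest apart below 0.

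The other 10 genes gave too little signal to be tested. Fgf3, Fgf4, Fgf5, Fgf12, Fgf15, Fgf16, Fgf20, Etv2 and Kl were above background on no array, with values between -7.33 and -4.77. They include the co-receptor of Fgf23 (Kl, or alpha-Klotho), the intestinal hormone Fgf15 and the endothelial regulator Etv2. Fgf17 was above background on islet replicate 2 only, at -2.52, against -7.09 on islet replicate 1 and -6.64 and -7.21 in the clusters. Whether these RNAs were present below the detection limit cannot be read from the arrays.

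The sizes of several differences changed with the background correction. Under normexp those of Fgf9, Fgf10, Fgf21, Fgfbp1, Fgfr4, Flrt1, Klb, Spry2, Spry3 and Spry4 kept their direction and their call and shrank by over 1.5 times, while that of Fgf7, well above background on all 4 arrays, was 7.97.

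**Figure D5:**
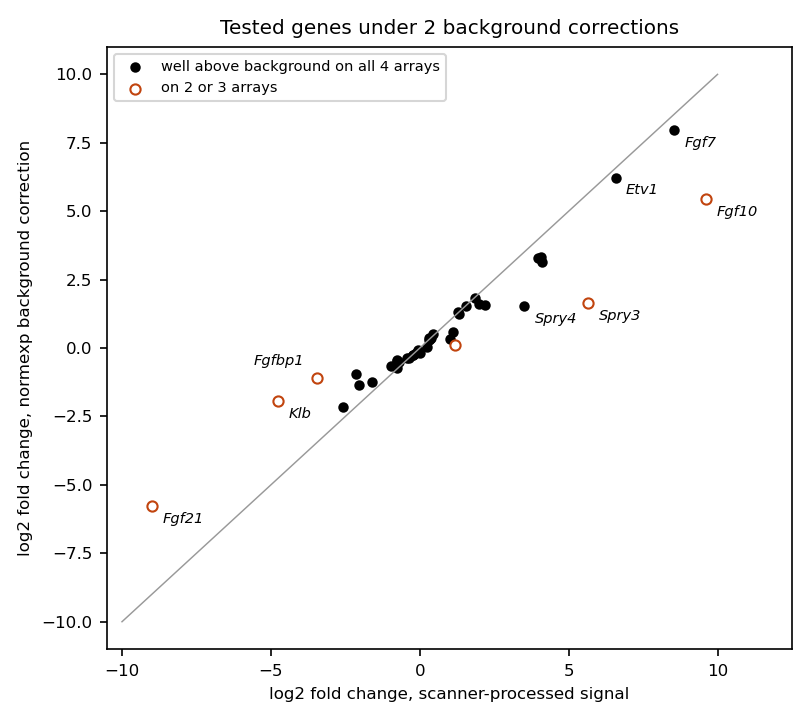
Log2 difference of each tested gene with the scanner's processed signal (horizontal) and with normexp background correction (vertical), with a line where both are equal and open points for genes well above background on 2 or 3 arrays. Fgf7 and Etv1 lie near the line, while Fgf10 (9.62 and 5.43), Fgf21 (-9.00 and -5.77), Spry3 and Klb lie nearer 0 on the vertical axis.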

How the data were processed

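RNA from 2 arrays of islet-like clusters and 2 of islets was hybridised as Cy3-labelled product of oligo-dT primed cDNA (500 ng total RNA), per the labels. The deposited scanner files hold intensity on a linear scale, written by Agilent Feature Extraction 11.5.1.1 with probe positions on mm9, per the file headers, where the processed signal is already background-subtracted. The authors' value table holds log2 values, which correlated with those of each array's own scanner file at r of 0.99995 or above, with medians of -3.61, -3.70, -3.50 and -3.37, not centred per gene; it was an alternative only. The scanner's spot flags (signal over background, saturation, non-uniformity) are codes in the deposited files.

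Values were log2 processed signal minus the array's 75th percentile over non-control probes. Non-uniform spots (510, 2, 26 and 4 per array) were left out, which dropped 490 probes, and no spot was saturated. Spots of a probe were averaged. A probe was kept where each array of clusters, or each array of islets, gave signal well above background (34974 kept), and a gene took its brightest probe. The groups were compared in R 4.3.3 with limma 3.58.1 (lmFit, eBayes, 2-sided, no covariates; 2 residual and 9.06 total degrees of freedom), with Benjamini-Hochberg adjustment over all genes at 0.05, and the script was tested on simulated data. All arrays share 1 slide and 1 scan time. The alternatives were normexp (offset 50), other scalings, quantile normalization, other filters or a floor for dim probes, non-uniform spots kept, averaged probes, a variance trend with robust fitting, the authors' values, a replicate block and leaving out each array. The number of arrays limits precision. The members, their roles and all gene lists were chosen with earlier results of these data known. Every member is accounted for; full statistics go to called members at 2-fold or more, and up to 3 called genes per direction are named from each pathway list. RefSeq (GRCm38.p6) matched 74 of 83 member probes and 1 had another symbol. Promoter windows were found for 40 of 52 members. The place of probes within transcripts was not analysed here.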

Additional observations from a re-analysis of the deposited data

How the results depend on the processing

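With 2 arrays per group, 16 alternatives were run, 4 of which leave out an array. Of the 28 called members, 19 kept their call in every alternative that tested them, 9 lost it in at least 1, and none of the 28 changed direction. Over the alternatives the members gave 13 to 22 higher and 7 to 12 lower calls. Leaving out 1 array gave 3909 to 5404 higher and 3741 to 5442 lower genes among all genes (6545 and 6945 with all arrays), and 13 to 16 higher and 7 to 10 lower members. The labels state no pairing by replicate number. The correlation of deviations was -0.02 over 24596 genes, which cannot decide whether samples were paired, since genes are not replicates. The replicate block gave 17 higher and 9 lower members. A slide or scan block could not be fitted, since there was 1 of each. Median scaling moved the median of all genes by 0.20 and scaling to probes detected on all arrays by -0.19. Among members that were not called, the difference changed sign for 6. Etv3 gave 0.132 under median scaling and -0.165 to 0.0384 with 1 array left out. Etv3l gave 0.0569 under median scaling, 0.0207 under quantile normalization and -0.422 to 0.145 with 1 array left out. Etv4 gave -0.0578 as the mean of its probes. With 1 array left out Fgf14 gave -0.497 to 0.0381 and Flrt3 -0.889 to 0.162. Spred3 gave -0.18 with scaling to probes detected on all arrays, -0.04 with the authors' values, -0.0419 with non-uniform spots kept, -0.17 with normexp and -0.449 to 0.461 with 1 array left out. The cause of these sign changes was not tested. Dim probes limit what can be read: differences of genes near background depend on the correction.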
